A study of Mus musculus with 2 samples.

Results

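A set of 10 chemokine genes known for their expression in macrophages, Ccl2, Ccl3, Ccl4, Ccl6, Ccl9, Ccl24, Cxcl2, Cxcl9, Cxcl10 and Cxcl16, were followed through single-nucleus ATAC-seq data of mouse liver. They are 10 of the 21887 protein-coding genes counted, were taken by name and lie in 6 loci (GRCm38, each with 20 kb on both sides in whole kb): Cxcl2 at chr5:90883001-90926000, Cxcl9 and Cxcl10 at chr5:92301001-92369000, Ccl24 at chr5:135549001-135594000, Cxcl16 at chr11:70434001-70480000, Ccl2 at chr11:82015001-82058000, and Ccl9, Ccl6, Ccl3 and Ccl4 at chr11:83552001-83685000. ATAC-seq uses a transposase to cut and tag open DNA, so a fragment marks accessible chromatin and is no measure of transcripts or protein.

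The study used 1 Spta sph/sph mouse, homozygous for a mutation of the alpha-spectrin gene that makes red blood cells fragile, and 1 Spta wt/wt littermate. Both were untreated males of 8 to 10 weeks. Cells of the digested liver other than hepatocytes were enriched with beads against F4/80, a macrophage surface protein, and 1 library per genotype was made from their nuclei. The question behind the series is whether engulfing red blood cells changes the inflammatory programme of liver macrophages. Barcodes end in 2 or 1, and nothing in the labels or files used here pairs these endings with the genotypes. The text therefore speaks of library 2 and library 1 and compares no genotypes. There are no replicates, so no test across samples could be made. Intervals are 95% intervals and cover counting error only.

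Chemokines are small secreted proteins that guide leukocytes along a gradient by way of receptors with several membrane passes. The CC group mostly draws monocytes, T cells and eosinophils, and the CXC group neutrophils or activated T cells. Kupffer cells, the resident macrophages of the liver sinusoids, are a known source of several of them, and many chemokine genes are induced through NF-kappaB or interferon signalling.

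The fragment table held 21656110 fragments of library 2 and 11401694 of library 1. The authors called 575 cells in library 2 and 637 in library 1, of which 562 and 609 passed the filter on fragments in peaks, with no barcode sequence shared. Clusters were built without the DNA within 50 kb of any of the 10 genes, so these genes did not define the classes. Kupffer-like cells numbered 293 in library 2 and 344 in library 1, and endothelial-like cells 138 and 127. The 12 Kupffer markers summed to 658 CPM (a gene's fragments scaled to a common total per class) in Kupffer-like cells of library 2 and 1091 CPM in those of library 1, against 149 and 145 CPM in endothelial-like cells, and 12 of 12 were detected in both Kupffer-like clusters. The 13 endothelial markers summed to 440 and 502 CPM in Kupffer-like cells, against 1327 and 2474 CPM in endothelial-like cells, with no marker of either list at 0 in either class. The Kupffer-like class is held by different clusters in the libraries. Cluster 1 held 292 of the 293 cells of library 2, with 50 of library 1, and cluster 2 held the other 294 of library 1, so library and cell state cannot be told apart within this class. The leading genes of cluster 1 held no Kupffer marker until pile-ups were masked, when Marco was among the top 10. The libraries also stood apart in quality. Among the cells that passed the filter, the median share of fragments in peaks was 53.9% in library 2 and 72.5% in library 1. Of the fragments of these cells, 12.1% in library 2, against 0.653% in library 1, lay in pile-ups, which are dense stacks within a single cell.

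A gene's level is its unique fragments over the gene body with 2 kb on both sides, in CPM. A ratio is a log2 ratio relative to the median gene, and a gene was counted as higher or lower when it passed 2-fold and both groups together held at least 50 fragments. Windows of Ccl3 and Ccl4 overlap and share fragments, those of Cxcl9 and Cxcl10 reach into Art3, and that of Cxcl16 reaches into Med11 and Zmynd15.

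Ccl2, Ccl3, Ccl4, Ccl6, Ccl9 and Ccl24, the CC genes of the set, were more open past 2-fold in Kupffer-like than in endothelial-like cells of either library. This did not hold under all settings for Ccl2 and Ccl9. The lowest ratio of Ccl2 was 0.81 in library 2, where masking pile-ups was enough to bring it under 2-fold, and 0.78 in library 1. That of Ccl9 was 0.99 in library 2. In library 2, 7 of the 10 genes were higher, 1 was lower and 2 were neither, with a median ratio of 1.35, where 10.9% of all genes tested were higher and 9.66% lower. In library 1, 8 of the 9 genes tested were higher and 1 was neither, with a median ratio of 2.84, where 12.2% of all genes tested were higher and 9.54% lower. In these counts and those below, Ccl3 and Ccl4 stand as 2 genes, although most Ccl3 fragments are also counted for Ccl4. Within 1 kb of the Ccl3 start, inside the Ccl4 window, lay 73 of its 83 Kupffer-like fragments in library 2. In library 1 these were 158 of 185. Cxcl9 and Cxcl10, both known as interferon-induced attractants of activated T cells, were higher in neither library.

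Ccl24, an attractant of eosinophils also called eotaxin-2, had 24.9 CPM in library 2 and 53.2 CPM in library 1 in Kupffer-like cells, against 1.90 and 3.81 CPM in endothelial-like cells. Its ratio was 3.58 (2.35 to 5.65) for library 2 and 3.70 (2.68 to 5.27) for library 1. Both Kupffer-like values lay far above both endothelial-like values, which were 4 fragments in 2 cells of library 2 and 6 fragments in 3 cells of library 1.

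Ccl3, which draws monocytes and other leukocytes, had 19.7 CPM in library 2 and 31.9 CPM in library 1 in Kupffer-like cells, against 2.86 and 0.635 CPM in endothelial-like cells. The library 1 endothelial value was a single fragment. The ratio was 2.71 (1.64 to 4.31) for library 2 and 5.08 (3.17 to 10.98) for library 1.

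Ccl4, an attractant of monocytes and T cells, had 42.5 and 86.4 CPM in Kupffer-like cells of libraries 2 and 1, against 13.8 and 6.98 CPM in endothelial-like cells. Its ratio was 1.64 (1.08 to 2.28) for library 2 and 3.58 (2.79 to 4.65) for library 1. Of its 29 endothelial fragments in library 2, 14 came from a pile-up in 1 cell, and with pile-ups masked that ratio was 2.57 (1.85 to 3.48). The annotated span of Ccl4 runs over Ccl3, so its window of 20.1 kb is the longest of the 10.

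Ccl6 and Ccl9 are neighbouring rodent genes whose products act through Ccr1. Ccl6 had 27.5 and 35.2 CPM in Kupffer-like cells of libraries 2 and 1, against 6.67 and 1.90 CPM in endothelial-like cells, with ratios of 2.04 (1.28 to 2.996) and 4.00 (2.66 to 6.51). The endothelial-like level of Ccl6 in library 1 was 3 fragments. Without doublet-marked cells, 2 endothelial-like fragments remained in library 2 and the Ccl6 ratio there was 3.76 (2.18 to 7.15). Ccl9 had 17.3 and 56.3 CPM in Kupffer-like cells, against 6.67 and 7.62 CPM in endothelial-like cells. The ratio of Ccl9 was 1.37 (0.58 to 2.35) for library 2 and 2.84 (2.07 to 3.87) for library 1, and its Kupffer-like level was the one that differed most between libraries.

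Ccl2, the main attractant of Ccr2-bearing monocytes, had 21.3 and 30.6 CPM in Kupffer-like cells of libraries 2 and 1, against 8.57 and 13.96 CPM in endothelial-like cells. Its ratio was 1.32 (0.61 to 2.17) for library 2 and 1.11 (0.50 to 1.85) for library 1. In library 2, 24 of its 90 Kupffer-like fragments lay in a pile-up of 1 cell, and with pile-ups masked the ratio was 0.88 and no longer past 2-fold.

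Cxcl2, an attractant of neutrophils, had 17.8 and 19.5 CPM in Kupffer-like cells, against 7.14 and 2.54 CPM in endothelial-like cells. Its ratio was 1.31 (0.54 to 2.26) for library 2 and 2.79 (1.56 to 4.86) for library 1, and the Kupffer-like levels of the libraries lay close together. Cxcl16, made as a membrane-bound ligand of Cxcr6, had 20.6 and 49.9 CPM in Kupffer-like cells, against 10.95 and 22.8 CPM in endothelial-like cells. Its ratio was 0.93 (0.27 to 1.68) for library 2 and 1.12 (0.64 to 1.68) for library 1, on either side of the 2-fold line.

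Cxcl9 had the opposite order. It had 6.17 and 4.49 CPM in Kupffer-like cells of libraries 2 and 1, against 15.7 and 13.3 CPM in endothelial-like cells. Its ratio was -1.31 (-2.11 to -0.53) in library 2, and -1.56 (-2.44 to -0.65) in library 1, where its 47 fragments were too few to count it. Stellate-like cells, the fibroblast-like cells of the liver, reached 24.2 and 28.0 CPM in libraries 2 and 1, and hepatocyte-like cells 25.9 CPM in library 1.

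Cxcl10 had 12.1 and 20.9 CPM in Kupffer-like cells of libraries 2 and 1, against 22.9 and 14.6 CPM in endothelial-like cells. Its ratio was -0.88 (-1.48 to -0.28) for library 2 and 0.50 (-0.12 to 1.24) for library 1. The point values thus took opposite orders in the libraries, but the library 1 interval took in the median gene. The library 2 ratio ran from -1.20 to -0.27 under other settings, and most of its 48 endothelial-like fragments came from doublet-marked cells. The difference between libraries was not tested.

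**Figure D1:**
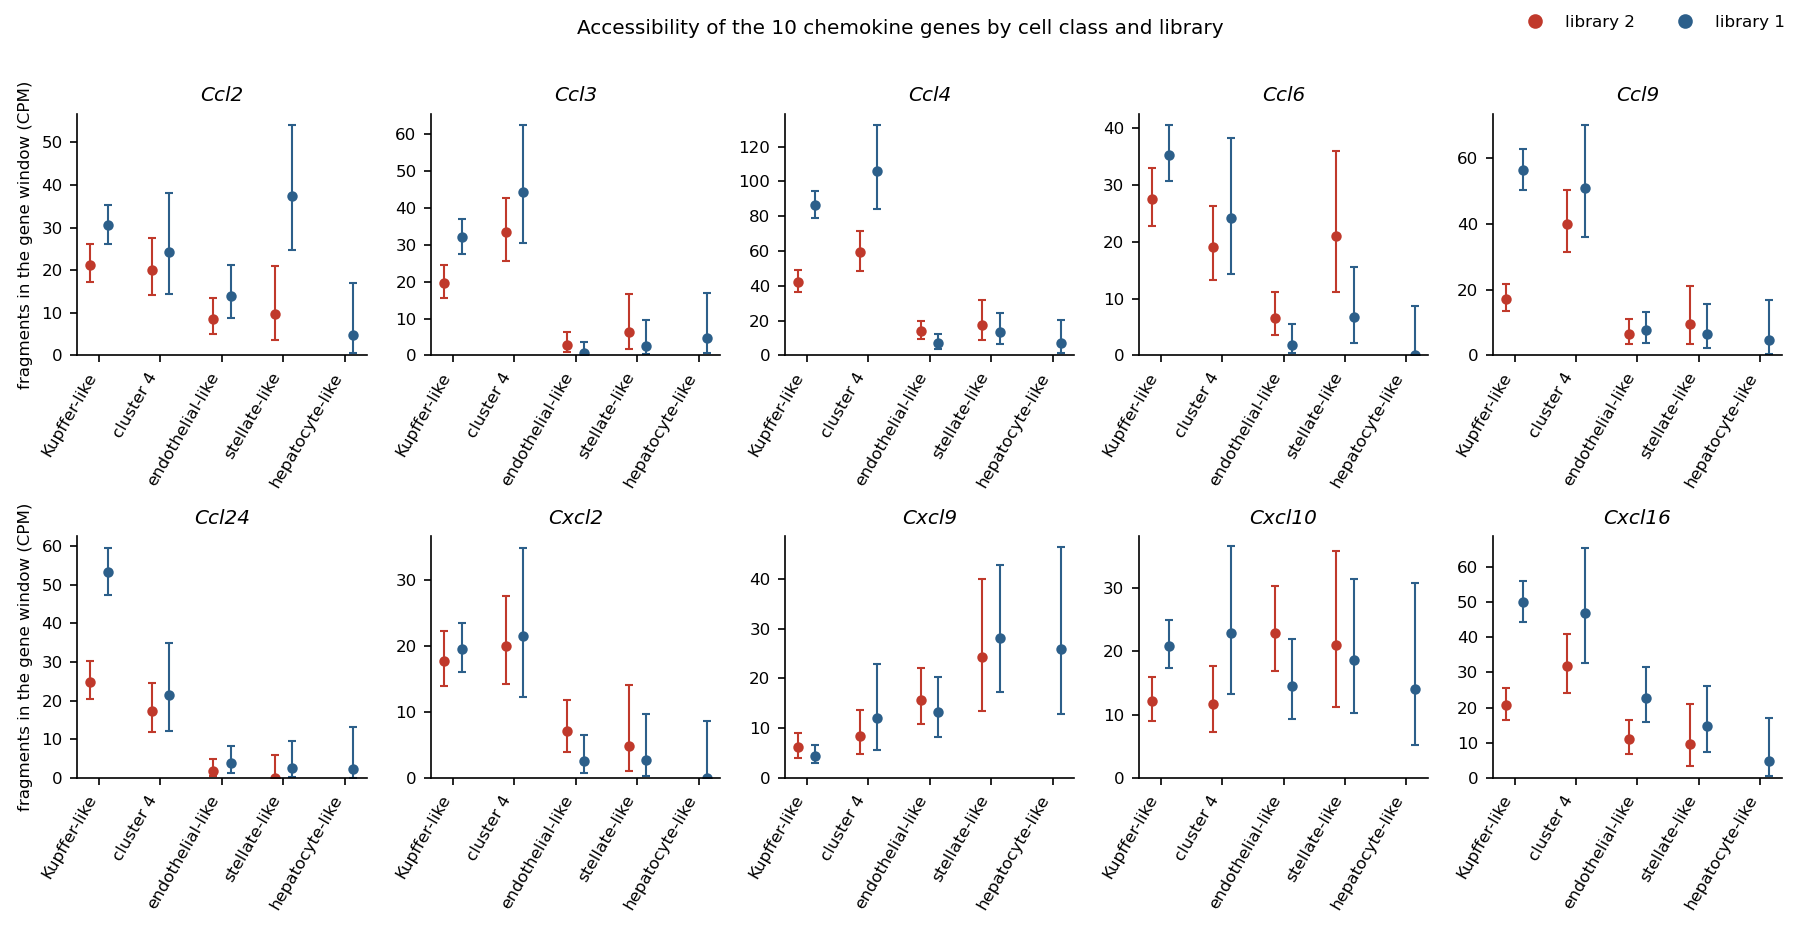
Fragments in each gene window (CPM, vertical axis from 0, each gene on its own scale) by cell class, in library 2 (red) and library 1 (blue), with exact Poisson 95% intervals. Most genes were highest in Kupffer-like cells or cluster 4, whereas Cxcl9 reached 24.2 and 28.0 CPM in stellate-like cells against 6.17 and 4.49 CPM in Kupffer-like cells.

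**Figure D2:**
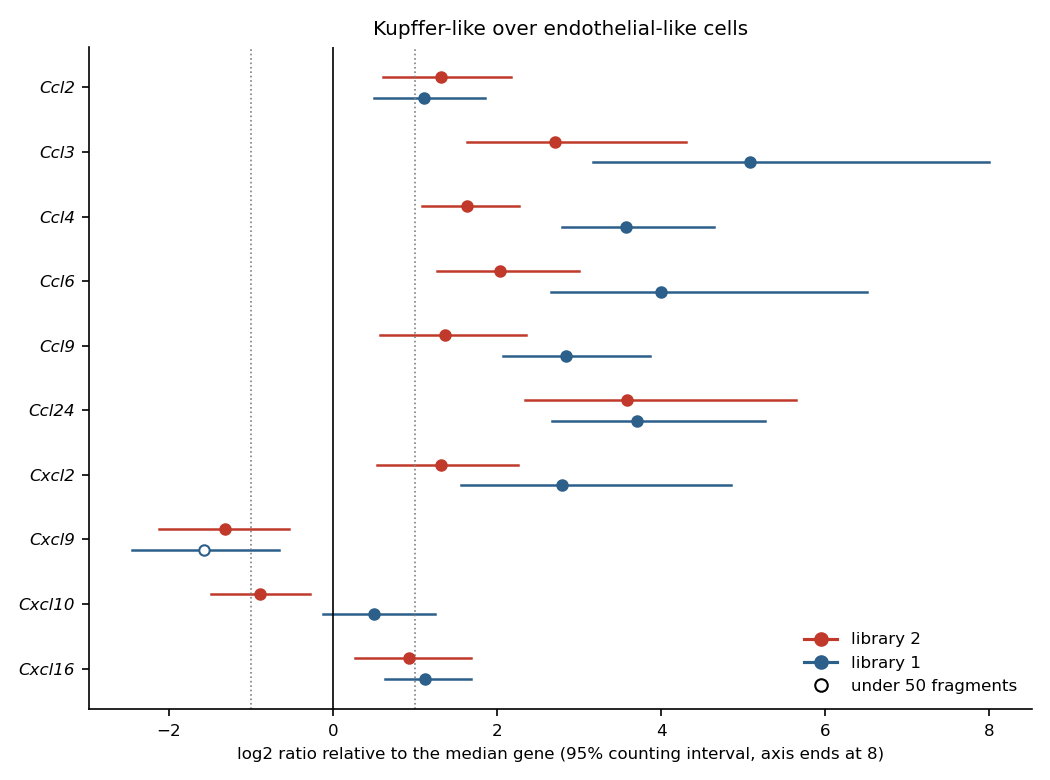
Log2 ratio of Kupffer-like over endothelial-like cells relative to the median gene, in library 2 (red) and library 1 (blue), with 95% counting intervals and dotted lines at 2-fold. Ccl24 had ratios of 3.58 and 3.70, and Cxcl9 lay below the median gene in both libraries at -1.31 and -1.56 (open circle, under 50 fragments).

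Cluster 4 was left unnamed because its leading marker lists, monocyte and dendritic cell, scored 1.13 and 1.05. Its monocyte markers summed to 574 CPM in library 2 and 592 CPM in library 1, where those of Kupffer-like cells summed to 339 and 444 CPM. Ccl4 had 42.5 and 86.4 CPM in Kupffer-like cells, against 59.2 and 106 CPM in cluster 4. Against it, Kupffer-like cells of library 2 had none of the 9 genes tested past 2-fold, where 10.4% of all genes were higher and 5.22% lower. In library 1, Ccl24 alone of 9 was higher, at 1.39 (0.70 to 2.25), where 6.58% of all genes were higher and 3.11% lower. Ccl24 had 53.2 CPM in Kupffer-like cells and 21.5 CPM in cluster 4 there. Ccl9 in library 2 had 17.3 CPM in Kupffer-like cells and 40.2 CPM in cluster 4, a ratio of -0.92 (-1.40 to -0.44).

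Against stellate-like cells in library 1, 7 of 9 genes were higher, none was lower and 2 were neither, where 13.4% of all genes were higher and 11.3% lower. Of the 7, Ccl3, Ccl24 and Cxcl2 had only 2 stellate-like fragments each, and Ccl6 and Ccl9 had 5 each. The intervals are wide, as for Cxcl2 at 2.48 (0.91 to 5.86). The 2 that did not differ past 2-fold were Ccl2, with 30.6 CPM in Kupffer-like cells and 37.4 CPM in stellate-like cells, and Cxcl10, with 20.9 and 18.7 CPM. Ccl24 had no fragment in the 24 stellate-like cells of library 2, which allows up to 4.84 CPM when taken as 3 fragments and 5.95 CPM by the exact interval, and Ccl6 had none in the 24 hepatocyte-like cells of library 1, which allows up to 7.06 or 8.68 CPM. Per kb of window, the Kupffer-like order ran from Ccl24 at 7.40 CPM per kb to Cxcl9 at 0.418 CPM per kb in library 1, and from Ccl2 at 3.63 to Cxcl9 at 0.574 CPM per kb in library 2. The place of Ccl2 in library 2 rests on the pile-up of 24 of its 90 fragments, and the scaled intervals of Ccl2, Ccl3, Ccl24, Ccl6 and Cxcl2 overlap, so their order is not set.

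The other chemokine genes are given as a description. Unlike the 10, they were part of the clustering, except where they lie within 50 kb of one of the 10. Of the 9 other ligands with enough fragments in library 2, 4 were higher in Kupffer-like than in endothelial-like cells, 2 were lower and 3 were neither. Of 13 in library 1, 5 were higher, 1 was lower and 7 were neither. Of all genes tested, 10.9% were higher and 9.66% lower in library 2, and 12.2% and 9.54% in library 1. Ccl12, a monocyte attractant of mice, had 17.1 and 30.6 CPM in Kupffer-like cells of libraries 2 and 1, against 2.38 and 5.08 CPM in endothelial-like cells. Ccl17, a ligand of Ccr4, was also among the highest, with ratios of 2.35 (1.54 to 3.39) and 2.29 (1.61 to 3.16). Ccl28, an attractant of lymphocytes to mucosal tissue, was lower in both, at -1.02 (-1.57 to -0.47) for library 2 and -1.05 (-1.51 to -0.56) for library 1.

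Of the receptors, 4 of 9 tested were higher in Kupffer-like cells of library 2 and 7 of 11 in library 1, with none lower. Over all genes tested, 10.9% and 12.2% were higher and 9.66% and 9.54% lower in libraries 2 and 1. Ccr9, the receptor of Ccl25, had 12.8 and 21.9 CPM in Kupffer-like cells of libraries 2 and 1, against 2.38 and 4.44 CPM in endothelial-like cells. Its ratio was 2.34 (1.15 to 4.14) for library 2 and 2.22 (1.23 to 3.66) for library 1. The atypical receptors, which take up chemokines without the usual signalling, and the sheddases, which cut Cxcl16 from the membrane, formed the last list. It had none higher, with 1 of 6 lower in library 2 and 2 of 5 in library 1. At the shares over all genes, none higher among so few genes is not read as a trait of the list. Within it, Ackr4 was lower in Kupffer-like cells, at -2.77 (-3.64 to -2.03) for library 2 and -1.82 (-2.56 to -1.09) for library 1.

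The fragments of the 6 loci were not spread evenly. In tiles of 1 kb, a tile was called open when it held at least 10 fragments and 5 times the mean of all tiles of that class and library. Of 378 tiles, 67 were open in Kupffer-like cells of library 2 and 100 in those of library 1, and 65 were open in both, where 2.22% and 3.02% of all tiles of the genome were open. Of the 102 open in either, 73 lay off the bodies of the 10 genes. The bodies cover a small part of the loci, so most of the 378 tiles lie off them as well. Of the 102, 82 were open in no endothelial-like library, where the share over the genome was 69.6%. Endothelial-like cells had fewer fragments, so the minimum of 10 set a higher bar for them. Kupffer-like cells had means of 1.75 and 2.404 fragments per tile in libraries 2 and 1, against 0.870 and 0.650 in endothelial-like cells. With 5 times the mean alone as their bar, 64 of the 102 were not open in endothelial-like cells, where the share over the genome was 49.3%. In the Ccl9, Ccl6, Ccl3 and Ccl4 locus these numbers were 43 and 35 of 44, and in the Cxcl9 and Cxcl10 locus 2 and 1 of 9.

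**Figure D3:**
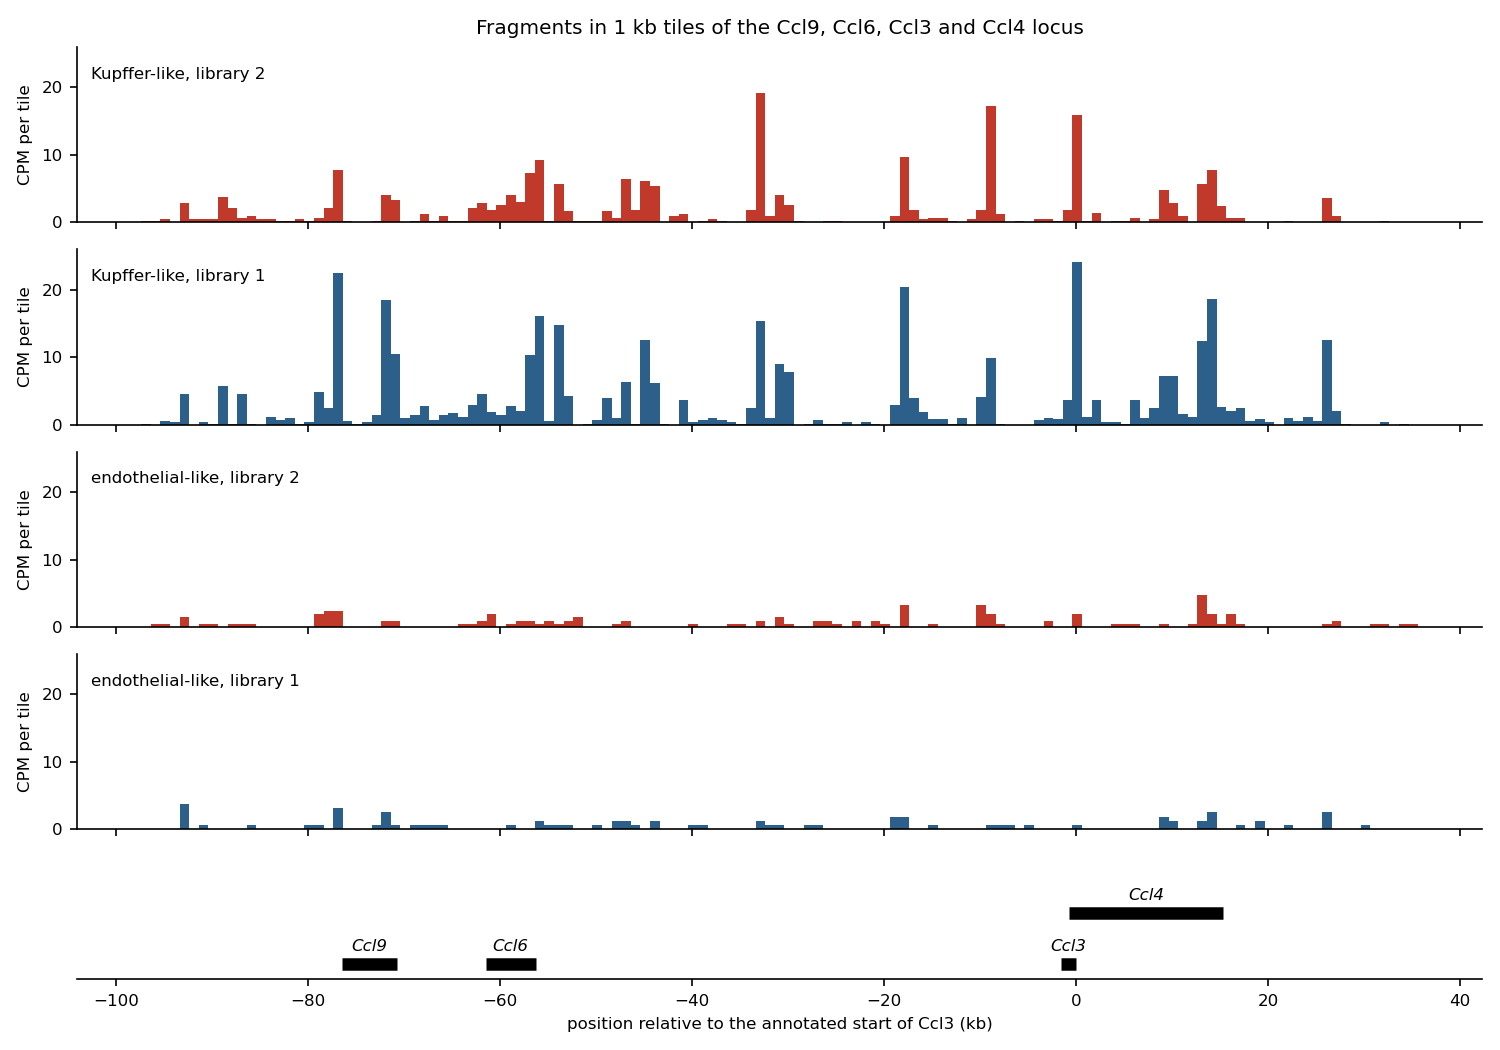
Fragments in 1 kb tiles (CPM, same vertical scale) across the Ccl9, Ccl6, Ccl3 and Ccl4 locus, by distance from the annotated Ccl3 start in kb, for Kupffer-like and endothelial-like cells of libraries 2 (red) and 1 (blue), with gene spans below. The Ccl3 start tile reached 15.9 and 24.2 CPM in Kupffer-like cells of libraries 2 and 1, against 1.90 and 0.635 CPM in endothelial-like cells.

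For 6 of the 10 genes RefSeq lists a promoter, and the starts of 5 of these, Cxcl2, Cxcl10, Ccl9, Ccl6 and Ccl3, lay in a tile open in Kupffer-like cells. The tile of the Cxcl9 start held 3 and 8 Kupffer-like fragments in libraries 2 and 1, against 12 and 14 endothelial-like fragments. The 250 bases before the start are shown for 4 of the 5, since their tiles carry the comparisons above and below, with motif matches in capitals (GRCm38.p6, gene strand, 5′ to 3′). Cxcl2 is at chr5:90903649-90903898 on the plus strand, Cxcl10 at chr5:92348890-92349139, Ccl9 at chr11:83578637-83578886 and Ccl3 at chr11:83649379-83649628 on the minus strand.
Cxcl2: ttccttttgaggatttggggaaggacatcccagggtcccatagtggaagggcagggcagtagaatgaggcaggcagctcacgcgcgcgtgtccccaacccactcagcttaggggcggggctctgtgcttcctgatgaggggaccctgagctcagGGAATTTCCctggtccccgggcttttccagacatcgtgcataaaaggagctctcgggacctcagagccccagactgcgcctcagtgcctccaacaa
Cxcl10: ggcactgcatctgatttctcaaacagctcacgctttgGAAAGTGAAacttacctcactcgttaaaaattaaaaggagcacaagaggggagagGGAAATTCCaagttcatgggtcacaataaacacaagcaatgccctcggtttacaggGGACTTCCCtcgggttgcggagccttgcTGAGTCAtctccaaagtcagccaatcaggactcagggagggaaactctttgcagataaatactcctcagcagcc
Ccl9: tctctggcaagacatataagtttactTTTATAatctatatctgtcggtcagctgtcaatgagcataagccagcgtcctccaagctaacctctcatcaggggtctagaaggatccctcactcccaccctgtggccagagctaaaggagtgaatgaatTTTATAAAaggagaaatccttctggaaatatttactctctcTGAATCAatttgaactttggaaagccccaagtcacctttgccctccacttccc
Ccl3: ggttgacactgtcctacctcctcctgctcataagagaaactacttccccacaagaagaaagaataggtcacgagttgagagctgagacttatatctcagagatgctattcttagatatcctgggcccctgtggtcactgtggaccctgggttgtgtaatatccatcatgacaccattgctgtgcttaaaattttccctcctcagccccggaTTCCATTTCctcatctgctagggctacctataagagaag
The search used 6 motifs on both strands, namely NF-kappaB as GGANTNNCC, AP-1 as TGANTCA, PU.1 as GAGGAAGT, ISRE (an interferon response element) as GAAANNGAA, C/EBP as TTGCNNAA and the TATA box as TATAAA. Of 32851 promoters, 10.8% held the NF-kappaB letters, 6.75% AP-1, 2.44% PU.1, 7.13% ISRE, 9.56% C/EBP and 12.4% the TATA box. Cxcl2 had 1 NF-kappaB match, starting 96 bases before the start. Cxcl10 had 2 NF-kappaB matches, 1 ISRE match and 1 AP-1 match. Ccl9 had 1 AP-1 match and 3 TATA box matches, 2 of which overlap on opposite strands, and Ccl3 had 1 ISRE match. Ccl6 had none. A match says only that the letters are present.

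Between the libraries, Ccl9 and Cxcl16 were lower in Kupffer-like cells of library 2. None of the 10 was higher, 2 were lower and 8 were neither, with a median ratio of -0.48, where 9.21% of all genes were higher and 2.9% lower. The 859 genes that were higher in Kupffer-like than endothelial-like cells of both libraries had a median of -0.18, and the 12 Kupffer markers one of -0.53, with 2 of them lower. The part that the lower marker level, the share in peaks and the pile-ups of library 2 have in these ratios was not tested.

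Ccl9 had the lowest ratio, with 17.3 CPM in library 2 and 56.3 CPM in library 1, a ratio of -1.43 (-1.83 to -1.07). With classes by marker fragments it was -0.70 (-1.26 to -0.20), no longer past 2-fold, and Ccl24 at -1.04 was below it. Within cluster 1, cells of library 2 had 17.2 CPM of Ccl9 (13.5 to 21.6) and the 50 cells of library 1 had 22.7 CPM (9.13 to 46.8), on 7 fragments. Cluster 2, nearly all of library 1, had 58.2 CPM (52.0 to 64.9). Those 50 cells were shallow, with a median of 4490.5 fragments against 16989.5 in library 1 cells of cluster 2. Their stellate or fibroblast markers summed to 539 CPM, against 194 CPM there. Thinned to 5000 fragments per cell, 6.2% (exact binomial 3.59 to 9.88) of 258 Kupffer-like cells of library 2 and 25.9% (21.1 to 31.2) of 309 of library 1 held a Ccl9 fragment, against 1.60% of 125 and 0.990% of 101 endothelial-like cells. Unthinned, the Kupffer-like shares were 16.4% and 54.4%. In cluster 4 the 2 libraries had 40.2 and 51.0 CPM.

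Cxcl16 was the other lower gene, with 20.6 CPM in library 2 and 49.9 CPM in library 1, a ratio of -1.01 (-1.38 to -0.66). With pile-ups masked it was -0.91 and not past 2-fold. Ccl24 was at -0.83 (-1.17 to -0.51) and Ccl4 at -0.76 (-1.02 to -0.52), both with intervals below the median gene. Ccl3 was at -0.43 (-0.83 to -0.06) and Cxcl10 at -0.52 (-1.03 to -0.05). With pile-ups masked, Cxcl10 was at -0.43 (-0.94 to 0.05).

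The intervals of the other 4 took in the median gene. Ccl2 was at -0.25 (-0.64 to 0.12), and with pile-ups masked at -0.60 (-1.04 to -0.20). Ccl6 was at -0.09 (-0.44 to 0.24), Cxcl2 at 0.13 (-0.32 to 0.56) and Cxcl9 at 0.72 (-0.12 to 1.56).

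Among the receptors, 1 of 14 was higher in Kupffer-like cells of library 2, 5 were lower and 8 were neither, where 9.21% of all genes were higher and 2.9% lower. Ccr2, the receptor of Ccl2, had 8 fragments in library 2 and 42 in library 1, a ratio of -1.60 (-2.98 to -0.57), and Ccr7, which guides dendritic cells and T cells to lymph nodes, had 35 and 25, a ratio of 1.19 (0.42 to 2.00). Of the 14 other ligands tested, none was past 2-fold, beside the same shares over all genes.

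In endothelial-like cells, 3 of the 10 genes had enough fragments, and none was past 2-fold, where 7.63% of all genes were higher and 2.62% lower. They were Cxcl9 at 0.45 (-0.37 to 1.32), Cxcl10 at 0.85 (0.12 to 1.65) and Cxcl16 at -0.83 (-1.66 to -0.05). Cxcl10 had 22.9 CPM in library 2 and 14.6 CPM in library 1 there, the reverse of their order in Kupffer-like cells. The other 7 had under 50 fragments, with ratios between -0.72 for Ccl24 and 1.92 for Ccl3.

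**Figure D4:**
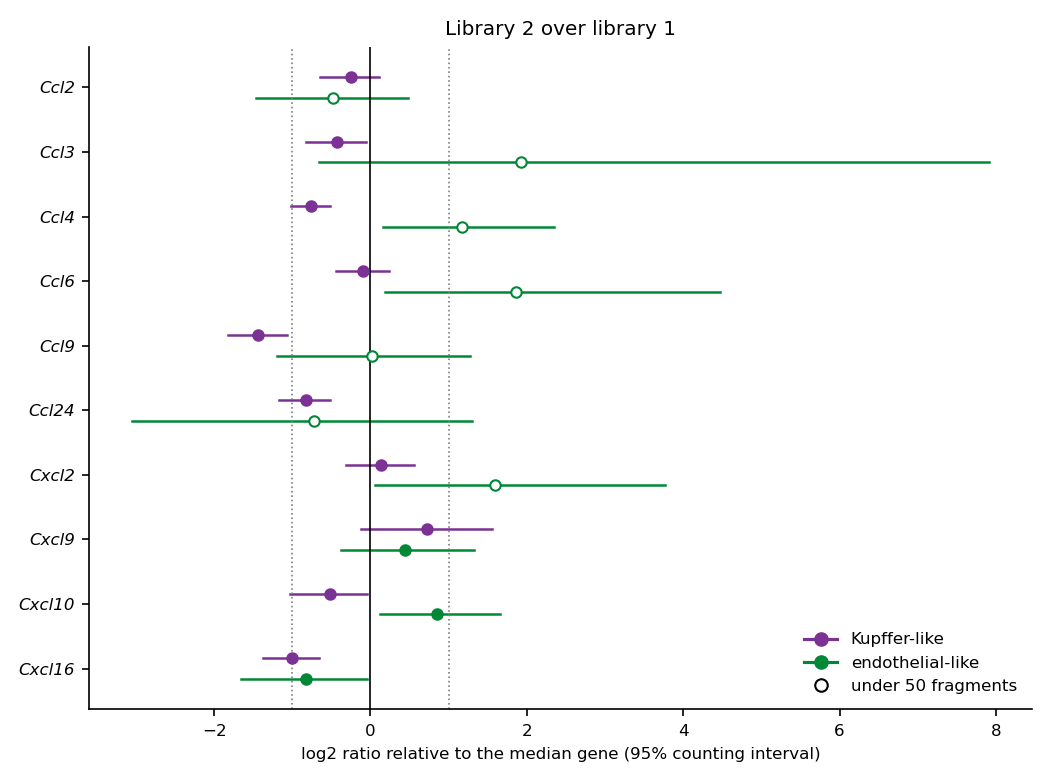
Log2 ratio of library 2 over library 1 relative to the median gene, in Kupffer-like cells (purple) and endothelial-like cells (green), with 95% counting intervals, dotted lines at 2-fold and open circles under 50 fragments. Ccl9 at -1.43 and Cxcl16 at -1.01 lay past 2-fold in Kupffer-like cells, and Cxcl10 was at -0.52 in Kupffer-like and 0.85 in endothelial-like cells.

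The library ratios were uneven along the loci. Of the 55 tiles with at least 50 fragments in Kupffer-like cells, 2 were higher, 9 were lower and 44 were neither relative to the median of all such tiles, with a median of -0.31, where 3.95% of all tiles were higher and 8.03% lower. Relative to the median gene, 1 tile was higher and 15 were lower, where 1.82% of all tiles were higher and 14.8% lower. In the Cxcl16 locus, 5 of 11 tiles were lower, and in that of Ccl9, Ccl6, Ccl3 and Ccl4, 3 of 20. These counts take in the whole locus with its margins and are not of the genes alone. Of the tiles open in Kupffer-like cells of either library, 19 of 21 in the Cxcl16 locus lay off the Cxcl16 body. In the other locus 25 of 44 lay off the bodies of its 4 genes. At Ccl2 and at Cxcl2 no tile of 7 and of 4 was past 2-fold.

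Of the 5 start tiles open in Kupffer-like cells, that of Ccl9 alone was past 2-fold relative to the median tile. These ratios are not on the scale of the gene ratios, since the median log2 ratio was -0.53 for tiles and -0.26 for genes. Relative to the median gene, each tile would be lower. The bases printed above lie in the start tiles, except that those of Cxcl10 run on into the next tile, which was at -0.66. Ccl3's start tile was at -0.07 (-0.52 to 0.35), Cxcl10's at 0.17 (-0.48 to 0.78), Cxcl2's at 0.34 (-0.15 to 0.81) and Ccl6's at -0.26 (-0.85 to 0.29). Ccl9's was at -1.10 (-2.09 to -0.28), on 14 fragments in library 2 and 61 in library 1. The next tile inside Ccl9, chr11:83577001-83578000, was lower still, with 17 and 107 fragments and a ratio of -1.63 (-2.50 to -0.92). Counted within 1 kb of the gene start and relative to the median gene, Ccl3 was at -0.29, Ccl6 at -0.32 and Cxcl10 at -0.44. Cxcl2 was at 0.11 and Ccl9 at -1.45 by that count.

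The 2 higher tiles of the 55, beside 3.95% of all tiles, are described and not read as a trait of the loci. The first, at chr11:83640001-83641000, outside any protein-coding gene and 6843 bases from Ccl3, held 73 fragments in 51 cells of library 2 and 57 fragments in 47 cells of library 1, a ratio of 1.34 (0.82 to 1.87), with no fragment in a pile-up. It lies within the locus whose median was -0.55. The other, in Sdad1 at 11331 bases from Cxcl9, had 40 and 37 fragments and a ratio of 1.10 (0.42 to 1.78). Relative to the median gene, the Sdad1 tile was not past 2-fold.

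**Figure D5:**
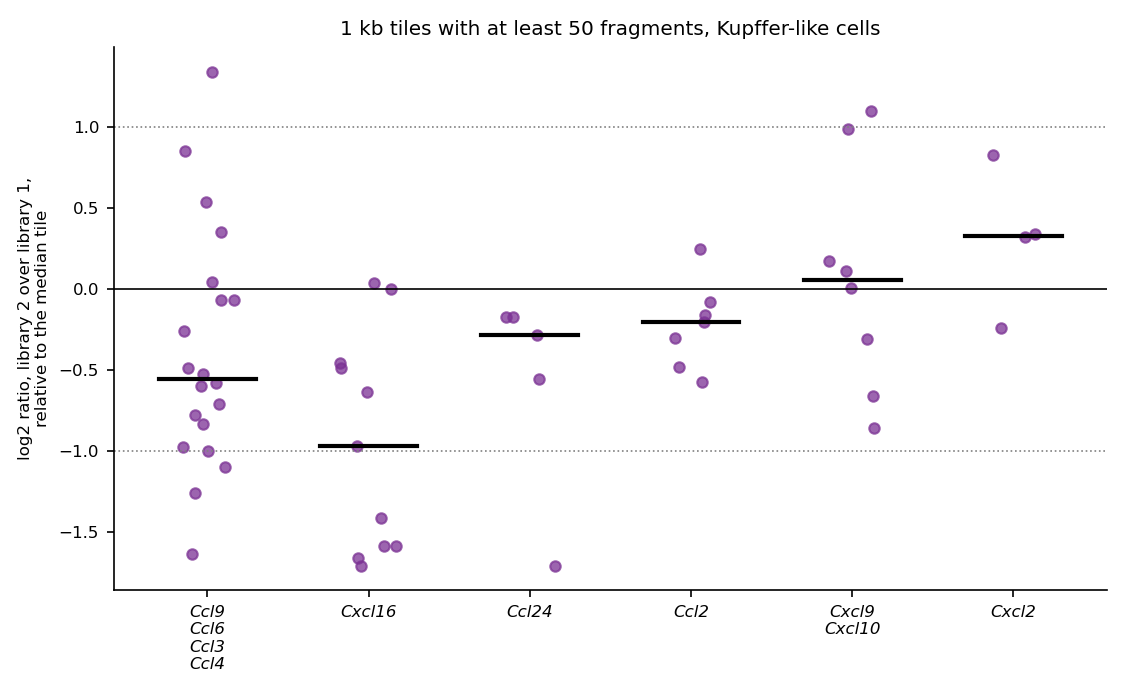
Log2 ratio of library 2 over library 1 in Kupffer-like cells for the 55 tiles with at least 50 fragments, by locus, relative to the median of all such tiles, with black bars at the locus median and dotted lines at 2-fold. The medians ran from -0.97 at Cxcl16 to 0.33 at Cxcl2, and the highest tile, at 1.34, lies in the Ccl9, Ccl6, Ccl3 and Ccl4 locus.

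The gene most like each of the 10 in log2 level over 7 class and library points, among 16944 genes more than 100 kb away, was Itga8 for Ccl2, Elmo1 for Ccl3, Cd300ld for Ccl4, Trim15 for Ccl6, Slc26a6 for Ccl9, Shoc1 for Ccl24, Lrrc25 for Cxcl2, Bmper for Cxcl9, Galns for Cxcl10 and Prpf38b for Cxcl16. Pearson's r ran from 0.975 for Cxcl10 to 0.997 for Cxcl2. With so many genes over 7 points that share 2 libraries, values this high are a description of these points.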

How the data were processed

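Single-nucleus ATAC-seq was made from 1 library per genotype. The submitters' processing notes name Signac 0.2.4, Seurat, R 3.6.1, Cell Ranger and Cell Ranger ATAC 1.2.0, and build GRCm38.p5. The deposited table holds unnormalised counts of read pairs per unique fragment, and each fragment was counted once here. A deposited per-barcode table holds counts of fragments, of fragments in peaks and of blacklisted fragments, with the authors' cell calls.

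Cells had at least 1000 fragments in peaks, at least 15% in peaks and at most 5% blacklisted. Fragments in 5 kb bins seen in at least 10 cells were binarised, weighted by TF-IDF and reduced by truncated SVD to 30 components (scikit-learn 1.9.0). The first was dropped, and Leiden clustering at 0.5 (leidenalg 0.10.2) ran on a graph of 20 neighbours. Of 9 clustering settings tried, this one was kept after seeing the clusters' marker scores, without regard to the values of the 10 genes, and the other 8 serve as alternatives. The rule for classes by marker fragments was replaced once, after the first left most Kupffer-like cells unnamed. Doublet-marked cells, 85 in library 2 and 68 in library 1, were kept. Contrasts between clusters 1 and 2 were also computed and are not reported, since few cells support them.

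Levels carry exact Poisson intervals, and ratios exact conditional binomial intervals with 0.5 added to the point value. Pile-ups were 20 kb bins in which a cell had 10 or more fragments and lay 10-fold or further above its expectation. Tile ratios were first taken relative to the median gene and then to the median tile. Genes and promoters came from RefSeq tables of GRCm38.p6, a patch release with the same primary chromosomes. The genes, lists, markers and tests were chosen with earlier results of these data known. Named genes are the 10 and, per other list and comparison, some of the 2 highest and 2 lowest. The counting steps were tested on simulated data. The gene table gives no strand, so starts are given only where a promoter is listed. Other chemokine genes matched 58 of 59 symbols of the 4 lists, the 10 genes included. Results of 1 gene are not reported here.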

Additional observations from a re-analysis of the deposited data

Results flagged for a closer look

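For 2 genes the libraries differed in opposite directions in the 2 main cell classes. Ccl4 had a library 2 over library 1 ratio of -0.76 in Kupffer-like cells and 1.16 (0.16 to 2.35) in endothelial-like cells. The endothelial value rests on 29 fragments in library 2 and 11 in library 1, under the minimum of 50, and 14 of the 29 came from 1 cell. With pile-ups masked it was 0.31 (-0.89 to 1.59).

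Cxcl10 had a ratio of -0.52 in Kupffer-like cells and 0.85 in endothelial-like cells. Neither value was past 2-fold. With pile-ups masked they were -0.43 and 0.93, and without doublet-marked cells the endothelial value was 0.32 on 22 and 18 fragments. Neither difference between the classes was tested, since there is 1 library of each kind.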

How the results depend on the processing

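No paired analysis was possible because there is 1 library per genotype and no replicate number. Counts of the 10 genes past 2-fold were 8 and 8 for Kupffer-like over endothelial-like cells in libraries 2 and 1, and 2 and 0 for library 2 over library 1 in Kupffer-like and endothelial-like cells. Gene bodies without flanks gave 2 and 4 for the classes, and 1 kb around the start 3 and 4, with 1 between libraries in Kupffer-like cells. Fewer genes reached 50 fragments there. Classes by marker fragments gave 1 of 1 gene tested for the classes in library 2, and the first such rule 0 of 0 and 2 of 2. The count between libraries in Kupffer-like cells was 1 with 3000 fragments in peaks, with 50% in peaks, at Leiden resolution 1, with pile-ups masked, with both marker rules and with 2 of the other clusterings. It was 3 with gene bodies alone, with no cell filter, with thinned cells and with 4 of the other clusterings. In endothelial-like cells it was 4 with no minimum of fragments, 1 with 50% in peaks and 1 with another clustering. Open tiles of library 2 numbered 67, 42 at 10 times the mean and 32 with classes by marker fragments. The causes were not tested. Of 598 values of single genes under the alternatives, 555 kept their side of 2-fold, 22 dropped under it, 21 passed it and none reversed a call. Genes with too few fragments, in the main setting or in the alternative, are not among the 598, so calls lost in that way are not counted. A change of sign in a gene that stayed within 2-fold counts as kept. Ccl9 ran from -1.76 to -0.70, Cxcl16 from -1.51 to -0.79 and Ccl24 from -1.32 to 0.30 between libraries. In Kupffer-like over endothelial-like cells of library 2, Ccl2 ran from 0.81 to 1.42, Cxcl2 from 0.71 to 1.66 and Cxcl10 from -1.20 to -0.27. The other clusterings, thinning and the first marker rule were chosen after seeing the data, and 2 clusterings left no endothelial-like cells in library 2.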
